A study of Mus musculus with 14 samples.

Results

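At 163 sites in mouse intestinal organoids, binding of the transcription factor ONECUT2 differed between organoids given an M cell protocol with RANKL and organoids in ENR medium, while acetylation of histone H3 at lysine 27 (H3K27ac) around the site was lower after RANKL. The sites were taken from the 7268 that the authors' deposited table lists for the ONECUT2 comparison. A site was counted as a member where it lay over 2 kb from both ends of every protein-coding gene of mm10 and overlapped, by at least 1 bp, an acetylated region with a mean of at least 10 CPM in ENR organoids and, after RANKL, a mean of at most 0.67 times that. CPM is the number of reads of a region per 1000000 reads counted in all 55050 regions of the authors' table in that library. Of the 7268 sites, 6053 were distal in this sense, 2201 of these overlapped an acetylated region, and 1244 overlapped one with at least 10 CPM in ENR. These 1244 divide into the 163 members, 1001 sites with a ratio between 0.67 and 2, called intermediate below, and 80 sites where H3K27ac at least doubled. With sites of weaker ENR acetylation included, 360 distal sites lay where H3K27ac doubled. The members lay in 162 regions on 19 of the 20 chromosomes with sites; 2 sites near Errfi1 shared a region.

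The organoids came from the small intestine of a female Lgr5GFPDTR/+ mouse, in which 1 allele of Lgr5 carries a GFP and diphtheria toxin receptor cassette. They were profiled by ChIPmentation, in which the transposase Tn5 adds sequencing adapters to antibody-bound chromatin. The RANKL arm (3 H3K27ac and 3 ONECUT2 libraries) was kept for 3 days in ENR with 3 µM CHIR99021, which activates Wnt signalling, and 1.5 mM valproic acid, which inhibits histone deacetylases, then for a day in ENR, and then given 100 ng/mL RANKL for 6 days. The ENR arm (3 and 3 libraries) was grown in medium with EGF, Noggin and R-spondin 1, for 6 days, and its labels name no pretreatment. Every value therefore compares the whole protocol with ENR medium, and RANKL alone cannot be told apart from the CHIR99021 and valproic acid that preceded it. All libraries came from the line of 1 mouse, and replicates are 3 independent differentiation experiments.

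H3K27ac is laid down by acetyltransferases such as p300 and marks active promoters and enhancers, the distal elements that raise transcription of genes on the same chromosome. ONECUT2 is a homeodomain factor with a single cut domain that is expressed in small intestinal epithelium, and it binds the ATCGAT and ATCAAT family of DNA words. RANKL is the cytokine that drives M cells, specialised epithelial cells over lymphoid follicles that take up luminal antigen. Enhancers of an earlier state commonly lose acetylation as cells differentiate.

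No genome was used here, so sequence is shown for the members that overlap the start of an annotated gene in the RefSeq promoter windows (build GRCm38.p6, 250 bases before to 50 after each start). Of the 163 members, 8 shared bases with 9 of the 32851 windows. These members are nonetheless over 2 kb from the ends of every protein-coding span, since the starts lie inside a span or belong to long non-coding genes, such as Rap1gapos and Gm41405 below. The 4 stretches below are those in which a member and a window share at least 200 bases and an ONECUT word was found. They are printed as examples, chosen because they hold such a word, and do not stand for the sequence of the 163 members. They run 5′ to 3′ on the gene's strand and over the shared bases alone, with the ONECUT word in capitals.
Rap1gapos start, at the member site inside Rap1gap (chr4:137706557-137706856, strand -): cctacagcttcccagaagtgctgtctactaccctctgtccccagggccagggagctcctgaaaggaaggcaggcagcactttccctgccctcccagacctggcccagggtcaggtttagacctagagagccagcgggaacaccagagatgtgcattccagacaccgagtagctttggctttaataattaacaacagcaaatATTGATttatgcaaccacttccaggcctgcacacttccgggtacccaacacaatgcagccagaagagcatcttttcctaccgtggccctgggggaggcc
Tspan12 start inside its span, at the member site there (chr6:21852484-21852783, strand -): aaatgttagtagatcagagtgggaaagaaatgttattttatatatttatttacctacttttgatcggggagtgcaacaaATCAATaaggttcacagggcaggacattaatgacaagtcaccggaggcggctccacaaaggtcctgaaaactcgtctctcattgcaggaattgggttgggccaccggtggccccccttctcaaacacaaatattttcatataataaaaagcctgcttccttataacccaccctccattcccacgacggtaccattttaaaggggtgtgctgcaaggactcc
Gm41405 start, at the member site nearest to Krt18 (chr15:102045104-102045367, strand +): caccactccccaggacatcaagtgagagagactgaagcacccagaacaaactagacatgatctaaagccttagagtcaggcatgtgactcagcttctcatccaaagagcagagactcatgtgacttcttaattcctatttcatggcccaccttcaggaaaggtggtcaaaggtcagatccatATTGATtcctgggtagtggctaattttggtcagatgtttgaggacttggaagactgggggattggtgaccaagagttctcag
Mrps23 start inside its span, at the member site there (chr11:88204138-88204382, strand +): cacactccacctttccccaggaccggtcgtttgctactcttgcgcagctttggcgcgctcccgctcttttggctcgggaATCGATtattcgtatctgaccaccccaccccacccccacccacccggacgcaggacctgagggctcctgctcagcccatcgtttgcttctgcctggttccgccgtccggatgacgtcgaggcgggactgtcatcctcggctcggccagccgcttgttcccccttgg
The word in each stretch, 1 apiece, was ATTGAT (the complement of ATCAAT) in the Rap1gapos and Gm41405 starts, ATCAAT in the Tspan12 start and ATCGAT in the Mrps23 start. The Gm41405 window also held an AP-1 word (TGANTCA) and the Tspan12 window an RBPJ word (TTCCCAC), both searched on both strands. The Gm30270 window, which also has over 200 bases within a member and overlaps 209 bases of the Tspan12 site on the other strand, held no ONECUT word, nor did the 4 windows that share 8 to 73 bases with members near Abraxas1, Fsd2, Foxa2 and Psen2. Over all listed ONECUT2 sites, 238 windows had at least 200 bases within a site, and 159 of them (66.8%) held ATCGAT or ATCAAT on either strand, against 2759 of all 32851 windows (8.40%). ATCGAT, its own reverse complement, was in 62 of the 238 (26.1%) and in 304 of all windows (0.925%). ATCAAT was in 97 of the 238 (40.8%) and in 7.54% of all windows. The 2 words do not contain each other, and none of the 238 windows held both. A word in a window is a description of its letters and does not show that ONECUT2 binds there.

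H3K27ac at the member regions after RANKL was lower than in ENR organoids by the rule, most often modestly so, and the loss was deepest at Lgr5. Since the rule chose members by these values, they are given as description, without a test. Median levels over the 162 regions were 14.2, 13.8 and 15.5 CPM in the RANKL libraries of experiments 1 to 3, against 27, 26.7 and 26.2 CPM in the ENR libraries. Together the regions held 0.291%, 0.295% and 0.303% of the counted reads in the RANKL libraries, against 0.542%, 0.532% and 0.546% in the ENR libraries. The median ratio of RANKL to ENR was 0.564, and single sites ran from 0.187 to 0.67. The ratio was at most 0.5 at 42 sites, at most 0.33 at 5 and over 0.6 at 54. For comparison, the median ratio over all 24490 regions with at least 10 CPM in ENR was 0.868. In these bulk cultures, fewer cells of a type and less acetylation per cell cannot be told apart.

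**Figure D1:**
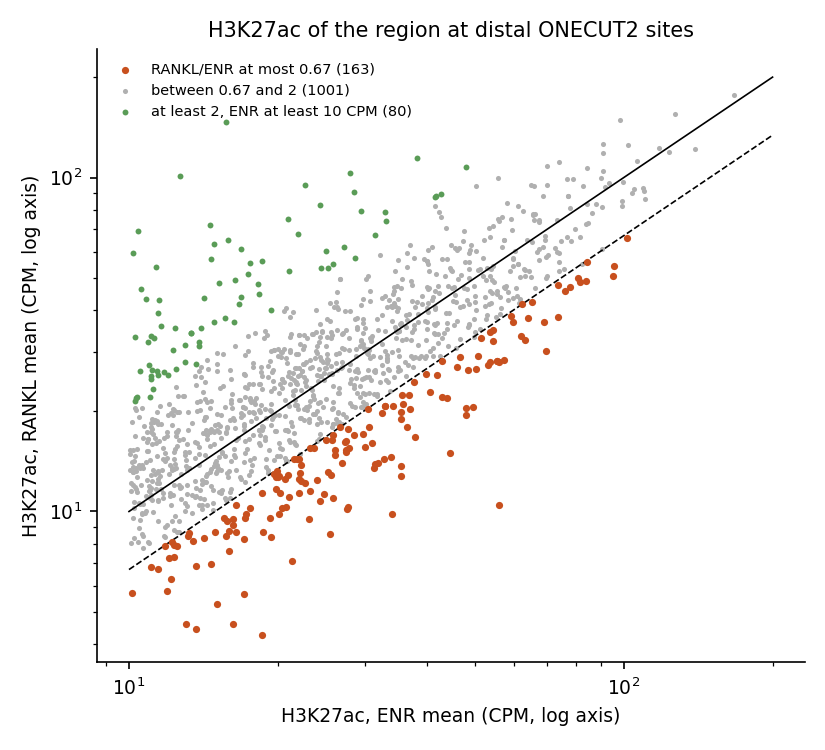
Mean H3K27ac after RANKL against mean H3K27ac in ENR (CPM, both log axes; n = 3 libraries each) for the 1244 distal ONECUT2 sites in regions of at least 10 CPM in ENR; the solid line marks equal levels and the dashed line a ratio of 0.67. The 163 members lie on or under the dashed line, at ENR levels from 10.1 to 101 CPM.

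The RANKL libraries were shallower. Their totals over all regions were 2745451, 3252533 and 3902301 reads, against 5434172, 9160267 and 5578062 in the ENR libraries. A member region had a median of 39, 45 and 60.5 reads in the RANKL libraries and 146.5, 245 and 146 in the ENR libraries, and the lowest count of any member was 6 reads in a RANKL library and 50 in an ENR library. At the lowest members a RANKL value thus rests on few reads.

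The strongest loss lay inside Lgr5, which encodes a receptor for R-spondins and marks crypt stem cells. The member site at chr10:115505692-115506092, inside the gene and 55.4 kb from its nearer end, had 10.6, 8.30 and 12.6 CPM in the RANKL libraries, against 61.3, 52.7 and 53.8 CPM in the ENR libraries. Every RANKL library was far below every ENR library there, and the ratio of means was 0.187 (10.5 ± 2.13 against 55.9 ± 4.66 CPM, SD, n = 3 each). A further member 34.3 kb from the same end of the gene, at chr10:115484573-115484973, had 5.10, 1.84 and 5.89 CPM after RANKL, against 19.3, 16.8 and 19.5 CPM in ENR, a ratio of 0.231. The RANKL values there rest on 14, 6 and 23 reads. No other listed site lay within 20 kb of Lgr5. At both sites the authors' deposited table gives more ONECUT2 after RANKL, with log2 folds of 0.71 (FDR 0.00222) and 1.14 (FDR 0.000742).

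The loss at Lgr5 was not confined to the 2 regions with a listed ONECUT2 site. The list holds sites whose binding differed between the arms, so a region without one may still be bound. Within 20 kb of the gene (chr10:115450314-115587780, 137.467 kb) the table holds 8 acetylated regions, and in 7 of them all RANKL libraries were below all ENR libraries. That held for 20.4% of all regions and for 42.6% of those with at least 10 CPM in ENR. Of the 7 regions with at least 10 CPM in ENR, 6 met both thresholds of the rule, as did 5282 of all 24490 such regions. Inside the gene, regions with no listed ONECUT2 site had ratios of 0.226, 0.317 and 0.205, and in a weak one (3.94 against 6.17 CPM, ratio 0.638) the arms overlapped. The region at the higher-coordinate end, with no site either, had the lowest ratio of the locus, 0.140 (7.58 against 54.3 CPM). The region 15.3 kb outside the lower-coordinate end, which lies 1238 bp from an end of another protein-coding gene, had a ratio of 0.725. The organoid line carries a cassette in 1 Lgr5 allele, and its part in these counts was not tested.

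**Figure D2:**
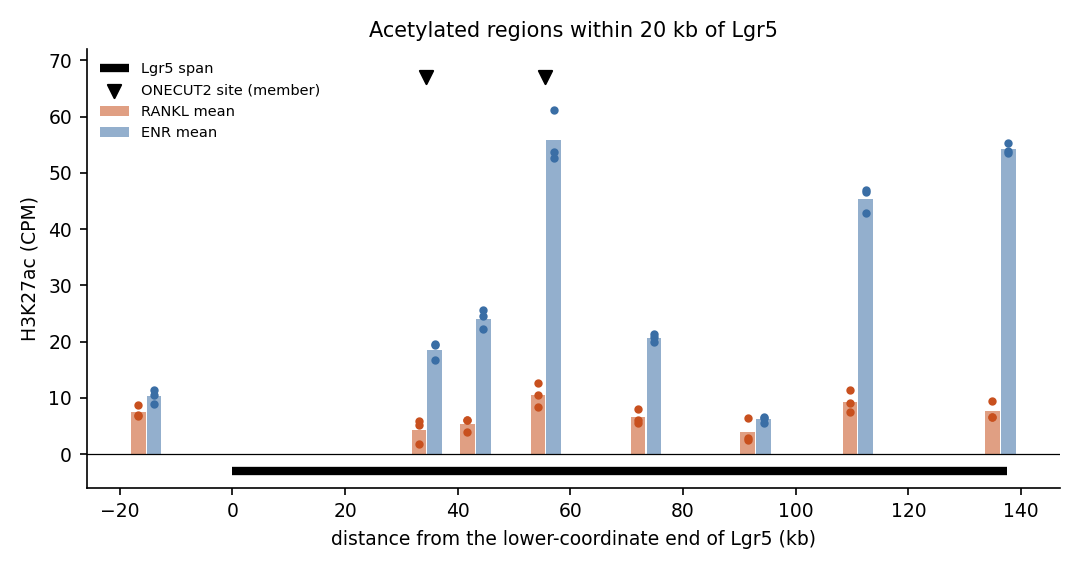
H3K27ac (CPM) of the 8 acetylated regions within 20 kb of Lgr5 by distance from the gene's lower-coordinate end (kb); bars are means of 3 libraries, points single libraries, triangles the ONECUT2 sites and the black bar the gene span. RANKL bars are the lower of each pair, at 0.140 to 0.725 of the ENR level.

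The other loci complete the 10 lowest ratios with no overlap between arms, and they fall into no single kind of gene. Near Vmn1r216, which encodes a vomeronasal receptor, H3K27ac was 4.60 ± 1.36 CPM after RANKL and 16.2 ± 1.49 CPM in ENR (SD, n = 3 each; ratio 0.284). Near Rabep1, which encodes the endosomal Rab5 effector Rabaptin-5, the libraries had 9.11, 13.5 and 6.92 CPM after RANKL, against 29.6, 33.5 and 38.7 CPM in ENR (0.290). Hcar2, a receptor for hydroxycarboxylic acids, lay nearest to a site with 4.44 ± 0.679 against 13.7 ± 1.18 CPM (0.325). All libraries of the RANKL arm were below those of the ENR arm at each of these. Ratios were 0.33 near Fam117b, 0.333 near the cadherin gene Cdh26, 0.335 near Trcg1, 0.335 near Tent5a, which encodes a poly(A) polymerase, and 0.351 inside Galntl6, which encodes a member of the polypeptide N-acetylgalactosaminyltransferase family. The strongest of these by level was Tent5a, with 12.7, 15.7 and 16.4 CPM after RANKL, against 43.2, 43.9 and 46.8 CPM in ENR.

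**Figure D3:**
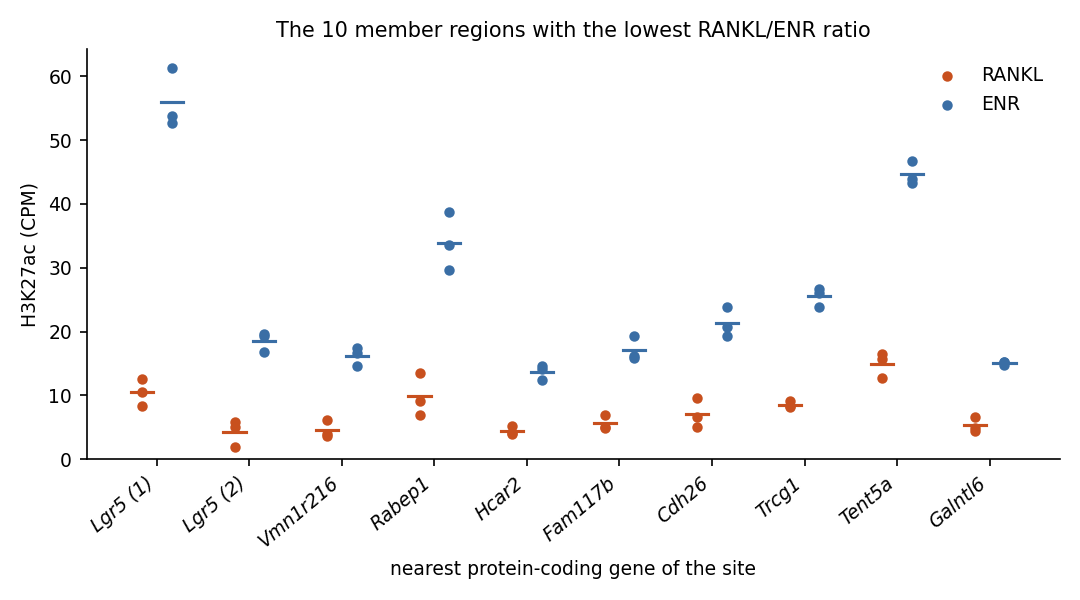
H3K27ac (CPM) in each library at the 10 member regions with the lowest ratio and no overlap between arms, named by the nearest protein-coding gene; points are libraries and dashes means (n = 3). Lgr5 (1) is the site at 55.4 kb and Lgr5 (2) the one at 34.3 kb from the gene end; in all 10 the RANKL points lie below the ENR points.

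Members in the most strongly acetylated regions kept substantial H3K27ac after RANKL. The strongest lay 43.6 kb from Fos, which encodes a subunit of the AP-1 factor, with 63.4, 69.5 and 65.1 CPM in the RANKL libraries, against 106, 95.6 and 102 CPM in the ENR libraries (ratio 0.650). Next were sites inside Palld, which encodes the actin-associated protein palladin (54.5 ± 4.29 against 95.6 ± 7.24 CPM), and Cers6, a ceramide synthase gene (50.8 ± 2.81 against 95.3 ± 6.88 CPM). A site inside Eps8, which encodes an EGF receptor substrate that caps actin in microvilli, had 55.8 ± 7.55 against 84.3 ± 5.11 CPM, and one 8.17 kb from Slc2a3, the glucose transporter GLUT3, had 48.9 ± 3.09 against 84.0 ± 7.21 CPM (SD, n = 3 each). Ratios at these 5 ran from 0.533 to 0.663, a range that includes the median of 0.564 over all members. The rule used these ratios, so nothing is read from the range.

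Sites with a stem cell gene as their nearest within 100 kb, the limit for all list counts, made up 3 of the 163 members (1.84%), against 7 of 1001 intermediate sites (0.699%), 1 of 360 doubled sites (0.278%) and 0.413% of all distal sites. The gene list holds 29 matched genes, and its members are the 2 Lgr5 sites and a site 28.7 kb from Smoc2, which encodes a secreted calcium-binding protein found in Lgr5-positive cells. The Smoc2 site had 14.6, 9.84 and 13.8 CPM after RANKL, against 39.0, 33 and 34.6 CPM in ENR, a ratio of 0.359 with no overlap. Beyond the limit, a member 189 kb from Lrig1, an inhibitor of ErbB receptors that is on the same list, had 8.15 ± 1.38 CPM after RANKL and 13.4 ± 2.07 CPM in ENR (SD, n = 3 each; ratio 0.606). These counts are small and no test was made of the difference in shares, nor does the nearest gene have to be the one a site acts on.

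Other lists had few members or none. Among intestinal transcription factors, a site lay 80.8 kb from Foxa2, a pioneer factor of gut endoderm (9.81 ± 2.34 against 17.2 ± 0.547 CPM, SD, n = 3 each; ratio 0.569). Among Notch genes the member lay inside Maml3, a coactivator of Notch receptors, with 47.8 ± 6.82 against 73.5 ± 3.62 CPM (0.650). Among interferon genes it lay inside Irf2, a factor that restrains interferon responses, with 14.4 ± 1.73 against 21.9 ± 2.08 CPM (0.656). Enterocyte genes had sites 3.98 kb from Slc2a5, the fructose transporter (ratio 0.442), and inside Mgam, the brush border enzyme maltase-glucoamylase (0.603). Single members lay inside Pou2f3, the master factor of tuft cells (0.560), and inside Eng, listed as endothelial (0.423), and 13.8 kb from Areg, which encodes the EGF receptor ligand amphiregulin (0.496). No member had a gene of the cell cycle, BMP, M cell, lipid, goblet, Paneth, enteroendocrine, NF-κB, mesenchymal or leukocyte list as its nearest within 100 kb. Over all 6053 distal sites those 10 lists had between 1 and 14 sites each, so few or none would be found among 163 at the same share.

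No gene was nearest to 3 or more members. Chosen after the values were seen, 7 genes were nearest to 2 each: Errfi1, Filip1l, Lgr5, Mapre2, Rap1gap2, Sox5 and Usp3. The region of both Errfi1 sites had 28.2 ± 1.32 CPM after RANKL and 55.5 ± 3.83 CPM in ENR (SD, n = 3 each; ratio 0.509); Errfi1 encodes an inhibitor of the EGF receptor. Inside Mapre2, a gene for a microtubule end-binding protein, the 2 regions had ratios of 0.384 and 0.516, and near the deubiquitinase gene Usp3 they had 0.534 and 0.648. The 2 sites 267 and 297 kb from the transcription factor gene Sox5 had 0.502 and 0.652. Members within 100 kb had 142 nearest genes in all, and 4 of these, Areg, Fsd2, Plekhg1 and Zfat, were also among the 257 nearest genes of doubled sites.

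The experiments are described singly next, from the same libraries whose means chose the regions. Set against the ENR library of the same number, the RANKL library gave a median ratio over the 162 regions of 0.530 in experiment 1, 0.552 in experiment 2 and 0.558 in experiment 3, where all regions with at least 10 CPM in ENR gave 0.863, 0.874 and 0.870. The ratio was below 1 in every experiment at 161 regions and at most 0.67 in every experiment at 87. No share over all regions is given for either count. In 157 of the 162 regions all RANKL libraries were below all ENR libraries, which held for 20.4% of all regions and for 42.6% of the 24490 with at least 10 CPM in ENR. The 5 with overlap were near or inside Dennd4a, Rpl34, Dyrk2, Wipf1 and Parm1. All 162 regions were called lower by edgeR's quasi-likelihood test (adjusted p under 0.05), with or without the experiment as a block, against 21% of the 54765 regions tested. The rule used the same contrast, so nothing is read from these ratios and counts.

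To obtain H3K27ac values that did not choose the sites, the rule was applied to 2 experiments and the ratio was read in the other. Sites chosen without experiment 1 numbered 168 in 167 regions, and their median ratio in experiment 1 was 0.590, against 0.571 in the experiments that chose them. Without experiment 2 there were 169 sites, with 0.592 in experiment 2 against 0.572. Without experiment 3 there were 185 sites, with 0.603 in experiment 3 against 0.563. The loss was therefore slightly smaller in the libraries not used, and the ratio was below 1 at 96.4%, 100% and 92.9% of these regions and at most 0.67 at 67.7%, 67.3% and 64.5%. Regions of the other distal sites with at least 10 CPM in ENR had held-out medians of 1.09, 1.07 and 1.12. Their ratio was below 1 at 41.3%, 42.0% and 39.7%, and their share at or under 0.67 was not computed. Regions are not replicates, and the 3 experiments are 3 differentiations of 1 line, so no p is given.

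**Figure D4:**
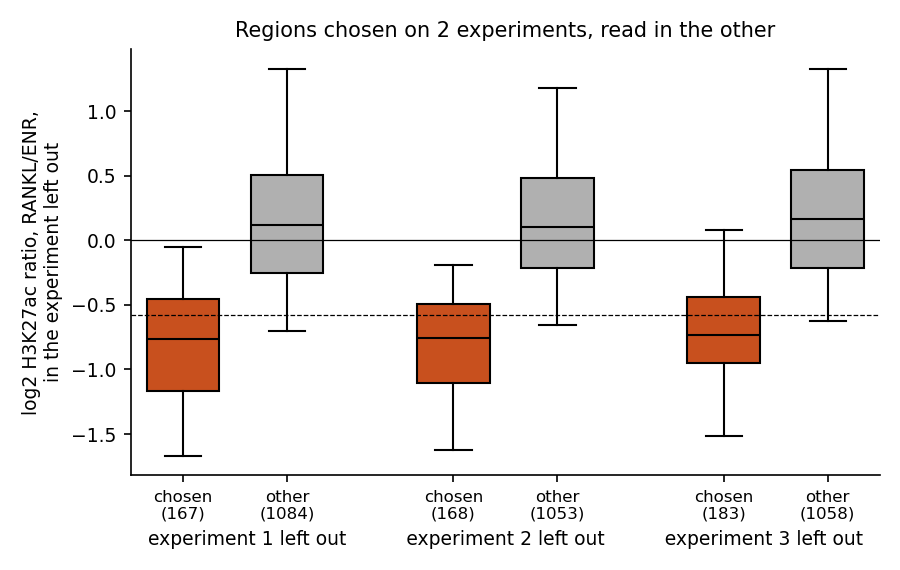
Log2 ratio of H3K27ac, RANKL over ENR, in the experiment left out of the choice, for regions chosen on the other 2 experiments and for regions of other distal ONECUT2 sites with at least 10 CPM in ENR; boxes show medians and quartiles, whiskers the 5th and 95th percentiles, and numbers of regions stand in parentheses. The dashed line is a ratio of 0.67, and the medians of the chosen regions lie below it in all 3 experiments, at ratios of 0.590, 0.592 and 0.603.

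ONECUT2 binding was listed as higher after RANKL at most members, with smaller folds than at other distal sites. The authors' deposited table lists 158 of the 163 members as higher after RANKL and 5 as lower, where 0.0963% of all listed sites are lower. In the authors' deposited table the members' median log2 fold was 1.26 (quartiles 0.97 and 1.63), against 1.63 at intermediate sites, 2.70 at the 360 doubled sites and 1.92 over all 5890 other distal sites. The difference of medians between members and the other distal sites in regions of at least 10 CPM in ENR was -0.41. The rule used no ONECUT2 value beyond the listing, but sites are not replicates and the table has no values per library, so these are descriptions without a test. By the authors' deposited table, 10 members (6.13%) had a linear fold of at least 4, against 26.3% of intermediate and 81.4% of doubled sites. A linear fold under 2, in the same deposited table of the authors, was listed at 45 members (27.6%), against 9.09% of intermediate and 0.833% of doubled sites.

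Over all members, the median ONECUT2 level in ENR was slightly above that of intermediate sites. After RANKL the medians were close, and both comparisons varied with the strength of the region. On the log2 scale of mean normalised reads, the authors' deposited table gives the members a median of 5.29 after RANKL, against 5.35 at intermediate and 5.00 at the 360 doubled sites. The corresponding ENR medians in the authors' deposited table were 3.81 at members, 3.56 at intermediate and 1.97 at the same doubled sites. In reads, these are 14.0, 11.8 and 3.93 in ENR, by the authors' deposited table. Most of the 360 lie in regions under 10 CPM in ENR; the 80 at or above it had ENR medians in the authors' deposited table of 2.63, 2.82 and 2.87 in regions of 10 to 20, 20 to 40 and at least 40 CPM. In the same classes the members' ENR medians in the authors' deposited table were 3.39, 3.96 and 4.25, against 3.46, 3.60 and 3.70 at intermediate sites. After RANKL they were 4.86, 5.18 and 5.55 at members, against 5.23, 5.41 and 5.49 at intermediate sites, by the authors' deposited table. The members' medians were thus below those of intermediate sites in both arms in the weakest regions, and above them in both in the strongest. The closest pairs were 3.39 against 3.46 in ENR in the weakest and 5.55 against 5.49 after RANKL in the strongest. No spread was computed within these classes, so nothing is read from differences of this size. Distal sites outside acetylated regions had an ENR median of 2.29 in the authors' deposited table.

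**Figure D5:**
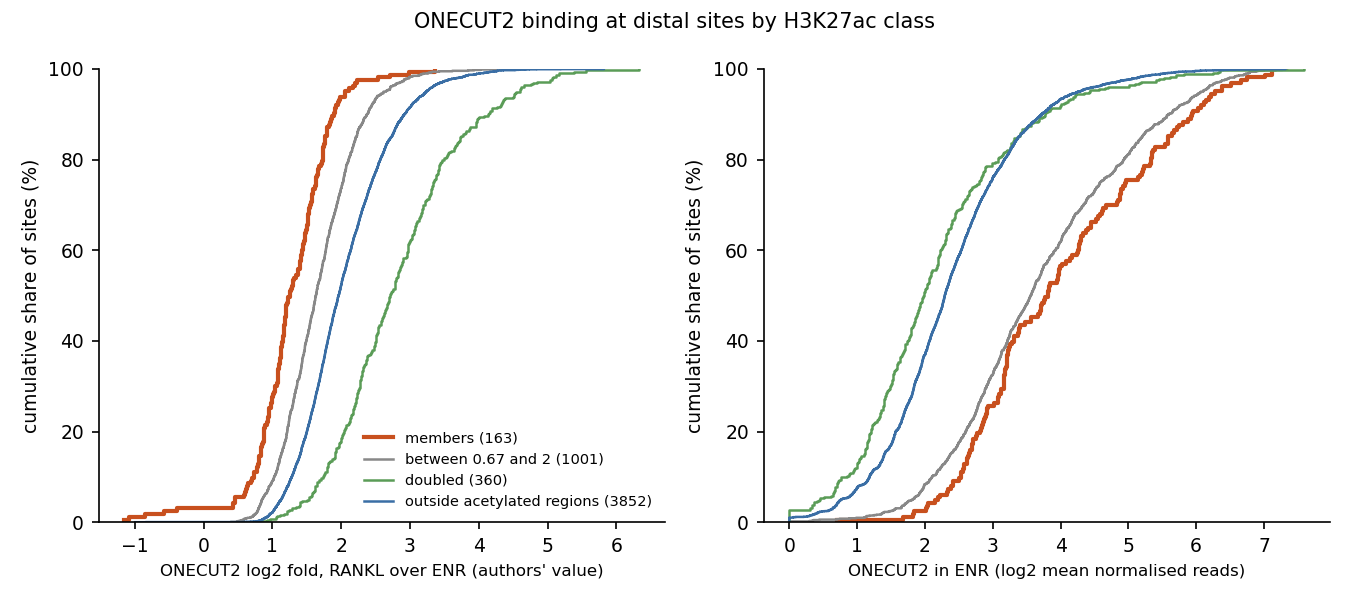
Cumulative share of distal sites (%) by the ONECUT2 log2 fold, RANKL over ENR, on the left and by the ONECUT2 level in ENR (log2 mean normalised reads) on the right, both from the authors' deposited table, for members, intermediate sites, doubled sites and sites outside acetylated regions. The members' curve lies farthest left for the fold (median 1.26) and farthest right over most of the ENR range (median 3.81).

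Split by the strength of the region, the members' median fold was below that of intermediate sites in each class. At sites in regions of 10 to 20 CPM in ENR, the median log2 fold in the authors' deposited table was 1.41 at the 46 members and 1.65 at the 409 intermediate sites. At 20 to 40 CPM it was 1.18 at 72 members and 1.62 at 362 intermediate sites, and at 40 CPM or more 1.28 at 45 members and 1.62 at 230 intermediate sites, by the authors' deposited table. When the 1244 sites were ranked by that log2 fold and cut into 4 bins of 311, members numbered 81, 39, 33 and 10 from the lowest to the highest bin (26.0%, 12.5%, 10.6% and 3.22%). The 80 doubled sites with at least 10 CPM in ENR numbered 5, 6, 16 and 53 in the same bins. Ranked by the ONECUT2 level after RANKL, the bins held 49, 35, 41 and 38 members, and ranked by the level in ENR 30, 42, 38 and 53. Members were thus spread most unevenly along the fold, less so along the ENR level and little along the RANKL level. Sites within 2 kb of a gene end whose region met the same 2 thresholds, 125 in number, had a median log2 fold of 1.51 in the authors' deposited table.

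Less ONECUT2 after RANKL is listed at 7 sites in all by the authors' deposited table, of which 5 are members and 2 are among the 5890 other distal sites (0.034%). Those 2, near Vdr and inside Dsp, lay outside acetylated regions. At the Rabep1 site (chr11:70828993-70829393) the authors' deposited table gives log2 levels of 4.69 after RANKL and 5.80 in ENR, a log2 fold of -1.09 with an FDR of 0.000237. Inside Stard13, which encodes a GTPase-activating protein, the log2 fold in the authors' deposited table was -1.15 (FDR 0.00388). H3K27ac there was 6.19, 7.99 and 6.66 CPM after RANKL, against 16.0, 15.8 and 12.2 CPM in ENR. Both signals were thus lower at these sites. The site 48.6 kb from E330021D16Rik had a log2 fold of -0.86 (FDR 0.0176) in the authors' deposited table and an H3K27ac ratio of 0.439. The site 107 kb from Cdh26 had -0.57 (FDR 0.0373) in the authors' deposited table and a ratio of 0.333, and the site inside Rad51b, a gene of homologous recombination, had -0.39 (FDR 0.0373) and 0.519. At all 5 sites the RANKL libraries had less H3K27ac than every ENR library, as at 157 of the 162 member regions.

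At the other end, 5 members gained much ONECUT2 while H3K27ac was lower. A site 266 kb from Dynlrb2, a dynein light chain gene, had a log2 fold of 3.36 in the authors' deposited table and H3K27ac of 8.01, 3.38 and 5.89 CPM after RANKL, against 12.7, 12.2 and 10.9 CPM in ENR. The site 7.14 kb from the forkhead factor gene Foxq1 had a log2 fold of 2.98 in the authors' deposited table. It also had the lowest ENR level of all members in the authors' deposited table, 0.70 on the log2 scale. H3K27ac there was 11.7, 16.3 and 17.9 CPM after RANKL, against 27.8, 25.4 and 29.2 CPM in ENR. Binding and acetylation moved in opposite directions here, which by the rule holds at all 158 members listed as higher. The arms did not overlap in H3K27ac at either site, as at 157 of the 162 member regions. Log2 folds in the authors' deposited table were 2.71 inside Wipf1, 2.54 inside the kinase gene Cdc42bpa and 2.24 inside Abraxas1. Wipf1 encodes a partner of the actin regulator WASP, and Abraxas1 is a gene of the BRCA1-A complex. At Wipf1 the H3K27ac libraries overlapped, with 10.6, 5.23 and 7.94 CPM after RANKL, against 14.7, 9.72 and 12.5 CPM in ENR.

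Members with the most ONECUT2 in ENR had small folds. By the authors' deposited table the ENR log2 levels were 7.12 near Slc2a3, 7.12 inside Rad51b, 7.02 inside Pank1, a gene of coenzyme A synthesis, 6.75 inside Irf2 and 6.66 near Plekhg1. Their log2 folds in the authors' deposited table were 0.64, -0.39, 0.43, 0.45 and 1.07 in that order. Besides Foxq1, low ENR levels in the authors' deposited table were 1.67 near Arhgap12, 1.84 inside Abraxas1 and 2.02 near Nmur2, a neuromedin U receptor gene, and their log2 folds were 1.74, 2.24 and 1.51. The fold has the ENR level in its denominator, so the level and the fold are linked by construction.

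Members lay a median of 27316 bp from the nearest protein-coding gene end, from 2036 to 743506 bp. Inside a gene span lay 75 (46.0%), against 53.1% of intermediate sites, and 15 lay over 100 kb from any span. Another listed site was within 10 kb at 16.0% of members and 15.1% of intermediate sites, and within 50 kb at 46.6% and 51.6%. The ONECUT2 site sat farther from the middle of its acetylated region at members, with a median offset of 231 bp, against 155 bp at intermediate and 118 bp at doubled sites. It was within 250 bp of the middle at 54.6% of members, 63.0% of intermediate and 70.6% of doubled sites.

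Acetylated regions beside the members were also lower after RANKL. Within 20 kb of the member regions lay 178 regions with no listed site and at least 10 CPM in ENR. Their median ratio was 0.753, and 73 of them (41.0%) met both thresholds. Beside intermediate sites there were 1152 such regions, with a median ratio of 0.912, and 206 (17.9%) met both thresholds. Neighbouring regions share genes and domains and are not independent, and no test was made.

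Among acetylated regions as a whole, most that met the thresholds held no listed ONECUT2 site. Both thresholds were met by 5282 of the 55050 regions (9.59%), of which 2760 lay over 2 kb from gene ends, and 157 of the 2760 held a listed site. Among distal regions of at least 10 CPM in ENR, 157 of 1196 with a listed site met the thresholds (13.1%), against 2603 of 13203 without one (19.7%). In regions of 10 to 20, 20 to 40 and at least 40 CPM in ENR the shares with a site were 9.04%, 16.3% and 15.6%, and those without one 15.4%, 24.3% and 23.9%. Shares of regions that doubled were 6.44% with a site and 4.45% without. Lost acetylation was thus recorded at a smaller share of regions with a listed ONECUT2 site than without one in every class of ENR level. The difference was not tested. Listed sites are those where binding differed between the arms, with 7 of the 7268 lower after RANKL. Regions without one may hold sites bound alike in both arms, so the shares do not compare bound with unbound regions.

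The values at the thresholds show where the list of members ends. Just inside the ratio threshold were sites near Tmprss2, Fads2 and Tm4sf20, with the Tmprss2 site at 17.9 against 26.7 CPM, and just outside were sites near Rapgef5, Atp8a1 and Prdm1, at ratios of up to 0.671. Just inside the ENR threshold were sites near Sipa1 (10.1 CPM), Dyrk2 (11.1 CPM) and Cabp2 (11.4 CPM), and just outside sites near Dnajc22 (9.46 CPM), Rarb (9.29 CPM) and Sp7 (9.06 CPM). By distance, Shh (2036 bp), Mapre2 (2162 bp) and Mrpl15 (2294 bp) were just inside and Lgals12 (1622 bp), Tnik (1603 bp) and Faah (1508 bp) just outside. The Faah site had a ratio of 0.385, lower than most members.

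Markers of the cells in the organoids moved between the arms as well. Summed over all regions within 2 kb of the genes' ends, stem cell and Wnt genes had 909 to 960 CPM in the RANKL libraries, against 1196 to 1212 CPM in the ENR libraries. Single enterocyte genes went both ways at their strongest such region. Vil1, which encodes villin of the epithelial brush border, averaged 64.1 CPM after RANKL and 82.4 CPM in ENR. Anpep averaged 25.8 against 10.4 CPM and Apoa4 50.4 against 28.4 CPM. Enterocyte genes had 741 to 790 against 938 to 945 CPM, and M cell genes 801 to 843 against 468 to 489 CPM. Goblet genes had 179 to 187 against 287 to 296 CPM, cell cycle genes 570 to 579 against 825 to 856 CPM and interferon genes 660 to 684 against 1027 to 1061 CPM. The arms did not overlap in any of these 6 sums. Paneth genes had 277 to 297 against 334 to 362 CPM and enteroendocrine genes 144 to 166 against 112 to 131 CPM, also without overlap. Tuft genes had 236 to 260 against 227 to 241 CPM, where the arms overlapped. Of 24 M cell genes 18 had such a region, with none at Gp2, Tnfaip2, Esrrg or Tnfrsf11a. Among those 18, Msln averaged 97.8 against 11.2 CPM at its strongest region, Spib 48.1 against 45.2 CPM and Pglyrp1 69.7 against 78.4 CPM. For cells other than epithelium, 0 of 12 mesenchymal genes reached a mean of 10 CPM in either arm (summed 17.2 to 27 against 18.4 to 27.3 CPM), and Col3a1, Dcn, Lum, Pdgfra and Pdgfrb had no region there. Of 11 endothelial genes 2 reached it, Lyve1 (16.0 against 23.1 CPM) and Prox1 (12.6 against 14.7 CPM). The endothelial sum was 26.6 to 38.2 against 40.5 to 43.2 CPM, with no region at Pecam1, Kdr or Vwf. Of 10 leukocyte genes 4 reached it in each arm (174 to 182 against 184 to 193 CPM), with no region at Ptprc or Cd3e. Cd14 (72.6 against 50.2 CPM), Cd68 (59.7 against 79.9 CPM) and Cd79a (24.3 against 36.5 CPM) reached it in both arms. Cd52 reached it only after RANKL and Itgax only in ENR. The part of shifts in cell types in the members' H3K27ac was not tested.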

How the data were processed

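H3K27ac values start from whole-number read counts per 2000 bp region, deposited by the authors with no normalisation. ONECUT2 values are the authors' deposited DiffBind results, with the log2 mean normalised reads per arm, the log2 fold, the p-value and the FDR of each 401 bp site, per the file headers. A normalised H3K27ac table, the input libraries and ONECUT2 values per library were not analysed here. Per the submitters' processing notes, the genome build was mm10. For the aligner, the peak caller, the DiffBind version and its normalisation, nothing is stated (not given in the sources used here). In the ONECUT2 table the largest FDR is 0.0496.

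CPM used column sums as the denominator, so a level is relative to all reads in regions. Totals ran from 2745451 to 9160267 reads. All regions were tested with edgeR 4.0.16 (R 4.3.3; quasi-likelihood, TMM, filterByExpr, Benjamini-Hochberg adjusted p under 0.05), checked on simulated data, with DESeq2 1.42.0 as an alternative. In the labels' descriptions, each library of either arm carries the number of its differentiation experiment, which pairs them; deviations from the arm means of same-numbered libraries had correlations of 0.0142, -0.0267 and -0.00732. Nearest genes came from the spans of 21900 protein-coding genes of RefSeq (GRCm38.p6), within 100 kb, ties going to the shorter span; exons and introns were not resolved. The 10 sites on unplaced scaffolds were left out. ONECUT2 coordinates are printed as deposited, and region starts were taken as counted from 0.

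Members, gene lists and tests were chosen with earlier results of these data known. Members named are the 10 lowest ratios without overlap (1 per region), the 5 highest ENR levels, the 5 largest and 5 smallest ONECUT2 folds with all sites listed as lower, the 5 highest and 5 lowest ENR ONECUT2 levels, genes with at least 3 members, those nearest to genes of 9 lists, up to 4 per list, and the 3 on either side of each threshold. A gene that this rule names is not reported here. Genes named beyond this were chosen after their values were seen. Alternatives changed the scaling, thresholds, overlap, distance, FDR, pairing and libraries used.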

Additional observations from a re-analysis of the deposited data

How the results depend on the processing

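The number of members depended on the thresholds and on the scaling, and the direction of every median held under all alternatives run. With a ratio of at most 0.5 there were 42 sites, with a median H3K27ac ratio of 0.431, a median ONECUT2 log2 fold of 1.11 and ratios in the experiment left out of 0.435, 0.451 and 0.506. With at most 0.8 there were 330 sites and a median ratio of 0.67. With an authors' FDR of at most 0.01, which 82.2% of members and 92.8% of intermediate sites met, the members' ONECUT2 log2 fold was 1.42. The difference from other distal sites was then -0.299, against -0.41 in the main analysis, the smallest in size of all alternatives run. With TMM scaling, the ratio in the experiment left out was 0.627 for experiment 2 and 0.563 for experiment 3, and 214 sites met the rule, among them all 163. Leaving out 1 library gave 165 to 176 sites, of which 139 to 155 were among the 163, median ratios of 0.558 to 0.573, ONECUT2 log2 folds of 1.24 to 1.30 and differences from other distal sites of -0.441 to -0.369. Pairing libraries by experiment, as a replicate block, gave 169 sites (162 of the 163 among them) and, in edgeR, 11095 regions lower and 7708 higher, against 11523 and 8120 without it, and it changed no other call. Scaled by library size only, 9608 regions were lower and 9918 higher. DESeq2's Wald test gave 9417 lower and 6222 higher, and leaving out 1 library in edgeR gave 9972 to 10907 lower and 6737 to 7484 higher. Of the alternatives chosen after seeing the data, region starts counted from 1 gave 163 sites and leaving out the 5 sites listed as lower gave 158. Motif shares of the whole sites and of their central 200 bp were not run, since no genome was used. RANKL libraries were the shallower, so low RANKL values carry the larger counting error, and sites that did not pass the authors' FDR were not analysed here.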

Other observations

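Some further members were picked by hand after their values were seen, for what their nearest genes are known to do; no count over all sites was made and nothing is read from them as a group. A site 3.52 kb from Spred2, an inhibitor of Ras-MAPK signalling, had 33.1, 33.5 and 30.8 CPM in the RANKL libraries, against 53.0, 55.8 and 54.1 CPM in the ENR libraries. A site 68.0 kb from Dusp5, which encodes a phosphatase of ERK, had 18.2, 20.9 and 22.8 CPM after RANKL, against 30.4, 32.2 and 36.2 CPM in ENR. Inside Etv5, an ETS factor gene induced by MAPK signalling, the values were 9.83, 12.6 and 15.9 CPM after RANKL, against 21.2, 22.7 and 16.5 CPM in ENR. The arms did not overlap at these 3 sites, as at 157 of the 162 member regions, and they lay close together at Etv5. A site 117 kb from the receptor gene Fgfr2 had 33.5 ± 1.63 CPM after RANKL and 61.9 ± 6.74 CPM in ENR (SD, n = 3 each). The log2 folds of ONECUT2 in the authors' deposited table were 1.30 for Spred2, 1.16 for Dusp5, 1.77 for Etv5 and 0.74 for Fgfr2, where 158 of the 163 members are listed as higher.

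At 4 genes a member and a doubled site shared the nearest gene. Near Areg, the member 13.8 kb away had 11.5 CPM after RANKL and 23.2 CPM in ENR, while a doubled site 15.0 kb away (chr5:91124156-91124556) had 26.4 CPM after RANKL and 10.5 CPM in ENR. The authors' deposited table gives log2 folds of 1.43 at the member and 3.21 at the doubled site. Near Fsd2 the H3K27ac ratio was 0.648 at the member and 4.56 at the doubled site, near Plekhg1 0.491 and 2.31, and near Zfat 0.527 and 2.07. At each of the 4 genes the doubled site had the larger ONECUT2 fold in the authors' deposited table.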
